A study of Caenorhabditis elegans with 78 samples.

Results

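The heterochronic genes lin-14, lin-28, hbl-1, lin-41, lin-46, daf-12, lin-42, blmp-1 and lin-29 of Caenorhabditis elegans were followed in whole-worm RNA from 5 histone demethylase mutant strains and wild-type N2. The members were chosen by name, as genes that time larval development, with earlier results of these data known. They are 9 of the 42048 genes in the count tables. All 9 passed the filter on low counts, which 15641 genes passed. Their raw counts per sample were lowest for hbl-1, at 12 to 91, and highest for lin-41, at 783 to 3806.

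Heterochronic genes tell cells of the worm which larval stage they are in, so that each stage's divisions and cuticle follow in order. LIN-14, LIN-28, HBL-1 and LIN-41 act before the adult stage and are switched off in turn, largely by the microRNAs lin-4 and let-7 and their relatives. LIN-29 then drives the change of the epidermis to its adult state. LIN-42 is the worm's Period homolog, and its RNA rises and falls once with each moult. Some members also work outside the epidermis, above all LIN-41, which holds oocytes back from maturing too soon.

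The mutants were jmjd-5 (zr1234), in which amino acids of the JmjC domain are changed, jmjd-1.2 (zr1010), and the triple mutant jmjd-3.1/2/3, which joins allele gk384 of jmjd-3.1, tm3121 of jmjd-3.2 and tm3197 of jmjd-3.3. The zr1234 allele was also combined with the triple mutant, giving jmjd-5;jmjd-3.1/2/3, called here the quadruple mutant, and with jmjd-1.2 (zr1010), giving jmjd-5;jmjd-1.2, called the double mutant. N2 carried none of these alleles. All 6 strains had been kept at 25 °C to the F3 generation, and by the study's methods 4 independent cultures of young adults were sequenced for each. Each strain is a single line, so an allele and whatever else its line carries cannot be told apart. In whole worms, fewer cells of a type and less RNA per cell cannot be told apart either.

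The 24 libraries held 3087933 to 9906241 counts, and every jmjd-5 library (6431200 to 7565222) was deeper than every N2 library (3927979 to 6372354). N2 libraries 2 and 4, and jmjd-5 libraries 3 and 4, differed by less than or about the sampling noise, with a mean chi-square per gene of 0.976 and 1.03 against 1.11 to 18.7 in the other pairs within a strain. Each of these 2 pairs was summed and counted as 1 sample, which left 22 samples (n = 3 for jmjd-5 and for N2, n = 4 for the other strains). The value of 1.11 was that of jmjd-5 libraries 1 and 4, just over the limit of 1.1 for summing. The jmjd-5 sample 1 was thus close to the summed samples 3 and 4. The spread between jmjd-5 samples may therefore understate that between cultures. Library 2 of the quadruple mutant and library 2 of the double mutant, the shallowest of the 24, stood apart from their own strains, with 9.40 to 18.7 in the 6 pairs that hold one of them. The jmjd-1.2 gene had 1 to 3 counts in jmjd-1.2 libraries and 1 to 13 in double mutant libraries, against at least 611 in the libraries of the other strains. Counts of jmjd-5, whose allele changes amino acids, and of the jmjd-3 genes, counted over the whole gene and not the deleted part, check nothing.

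Levels are given as CPM, the counts of a gene divided by the size of its library, after TMM scaling, which sets samples on a common scale for most genes. Differences are log2 fold changes with their standard error (SE) from edgeR's quasi-likelihood test, one fit over all 6 strains, with p-values adjusted over all 15641 genes by the Benjamini-Hochberg method. A gene was called when the adjusted p was under 0.01 and the log2 fold change at least 1 in size, and was said to differ when the adjusted p alone was under 0.05. The 5 comparisons with N2 share the same N2 samples. Levels cannot be set against each other between genes, since the counts were not divided by gene length.

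**Figure D1:**
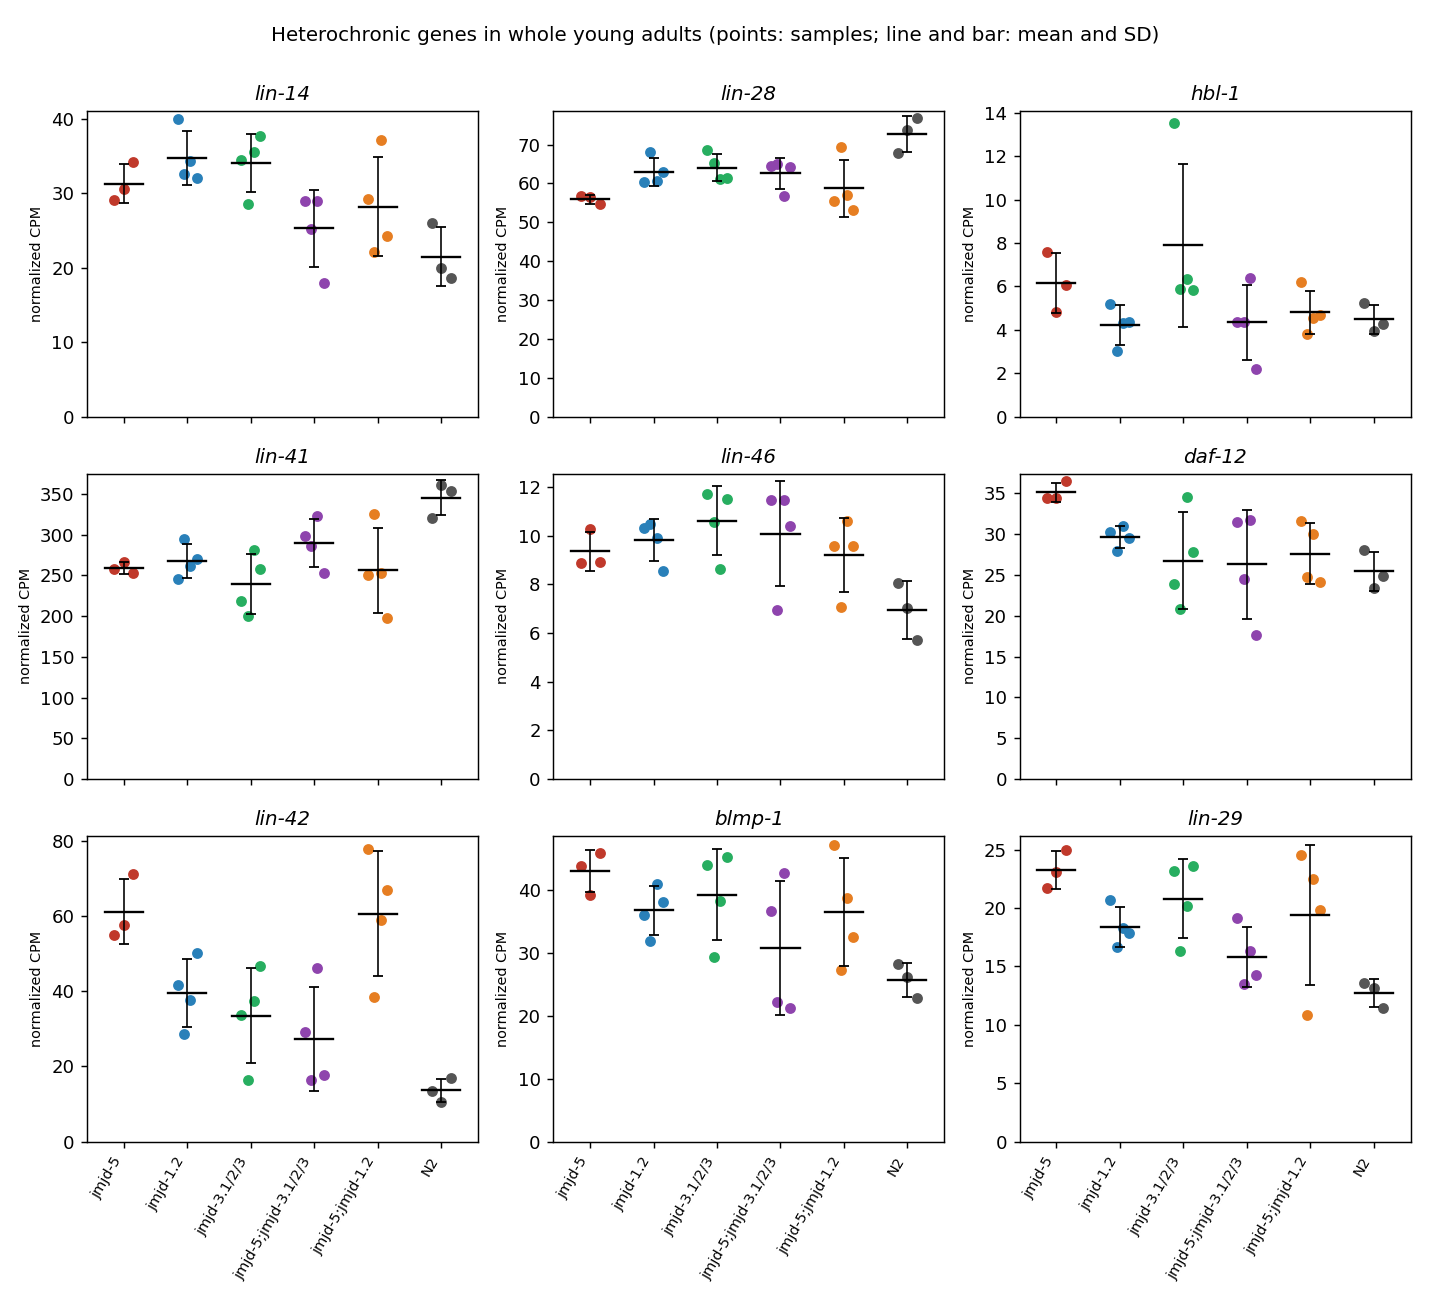
Normalized CPM (vertical axes, from 0) of the 9 heterochronic genes in each strain, N2 at the right. Points are samples, lines and bars the mean and SD (n = 3 for jmjd-5 and N2, n = 4 for the others). lin-42 was at 54.9 to 71.1 CPM in jmjd-5 and at 10.6 to 16.8 CPM in N2, while lin-41 and lin-28 had their highest mean in N2.

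lin-42, the Period homolog that cycles with the moults, stood further from N2 than any other member in each of the 5 mutants. It had 54.9, 57.5 and 71.1 CPM in the 3 jmjd-5 samples, against 13.6, 10.6 and 16.8 CPM in the 3 N2 samples. In double mutants it had 77.9, 38.5, 59.0 and 66.9 CPM, and in jmjd-1.2 mutants 41.7, 28.6, 37.5 and 50.2 CPM. Every sample of these 3 strains lay above every N2 sample. In jmjd-3.1/2/3 mutants lin-42 had 33.6, 16.5, 37.5 and 46.7 CPM, and in quadruple mutants 29.2, 16.4, 46.1 and 17.7 CPM. In both of these strains library 2 lay among the N2 samples, and library 4 of the quadruple mutant was only just above them. The log2 fold change against N2 was 2.23 in jmjd-5 (SE 0.36, adjusted p = 2.95e-05, a 4.68-fold higher level) and 2.23 in double mutants (SE 0.35, adjusted p = 1.85e-05). It was 1.59 in jmjd-1.2 (SE 0.35, adjusted p = 0.00149), 1.36 in jmjd-3.1/2/3 (SE 0.36, adjusted p = 0.00452) and 1.11 in quadruple mutants (SE 0.37, adjusted p = 0.0230). The last of these missed the call on its adjusted p. The calls in jmjd-5 and double mutants were kept whichever sample was left out. Leaving out N2 samples 2 and 4, which are the summed pair, ended the call in jmjd-1.2 (adjusted p = 0.0220). In jmjd-3.1/2/3 it was ended by leaving out N2 samples 2 and 4 (adjusted p = 0.0441), N2 sample 1 (0.0160) or jmjd-3.1/2/3 sample 4 (0.0151). In quadruple mutants the adjusted p passed 0.05 without N2 samples 2 and 4 (0.145), without N2 sample 1 (0.0549) and without quadruple mutant sample 3 (0.101). By mean level jmjd-5 came highest with 61.2 CPM, then double mutants with 60.6, jmjd-1.2 with 39.5, jmjd-3.1/2/3 with 33.6, quadruple mutants with 27.3 and N2 with 13.7 CPM, and the samples of neighbours in this order overlapped throughout.

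lin-29 encodes the zinc finger factor that carries out the larval to adult switch in the epidermis. It had 21.7, 23.1 and 25.0 CPM in jmjd-5 samples, against 13.6, 13.2 and 11.4 CPM in N2 samples. In jmjd-1.2 mutants lin-29 had 20.7, 16.7, 18.3 and 17.9 CPM, and in jmjd-3.1/2/3 mutants 23.2, 16.3, 20.2 and 23.6 CPM. All samples of these 3 mutants were above all N2 samples. Double mutants had 24.5, 10.9, 22.5 and 19.8 CPM, and quadruple mutants 19.2, 13.5, 16.3 and 14.3 CPM. Library 2 of the double mutant was below every N2 sample, and library 2 of the quadruple mutant was within the N2 range. lin-29 rose with a log2 fold change of 0.86 in jmjd-5 (SE 0.19, adjusted p = 0.000801), 0.70 in jmjd-3.1/2/3 (SE 0.19, adjusted p = 0.00526), 0.64 in double mutants (SE 0.19, adjusted p = 0.00704) and 0.52 in jmjd-1.2 (SE 0.19, adjusted p = 0.0296). In quadruple mutants the value was 0.33 (95% interval -0.08 to 0.73, adjusted p = 0.191). The jmjd-1.2 result passed 0.05 in 18 of the 22 fits that left out 1 sample, with an adjusted p of up to 0.0868, and was lost without jmjd-1.2 sample 1 or 3, N2 samples 2 and 4 or N2 sample 3. In the WBcel235 annotation lin-29 overlaps hmg-12 and 3 short RNA genes, and the counting, run with default settings, did not use strand. hmg-12 moved the other way in jmjd-5, with 160 CPM in jmjd-5 and 215 CPM in N2 (log2 fold change -0.42, adjusted p = 0.0150).

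blmp-1, a zinc finger factor of the BLIMP1 family that takes part in the timing of cyclic gene expression, had 43.8, 39.3 and 45.8 CPM in jmjd-5 samples, against 28.2, 26.1 and 22.8 CPM in N2 samples. Its other ranges were 31.9 to 41 CPM in jmjd-1.2, 29.4 to 45.3 CPM in jmjd-3.1/2/3, 21.2 to 42.8 CPM in quadruple and 27.4 to 47.2 CPM in double mutants. Samples of jmjd-5 and of jmjd-1.2, and also those of jmjd-3.1/2/3, lay above N2 without overlap, and those of both compound mutants did not. blmp-1 rose by a log2 fold change of 0.73 in jmjd-5 (SE 0.22, adjusted p = 0.00652), 0.60 in jmjd-3.1/2/3 (SE 0.21, adjusted p = 0.0239), 0.51 in double mutants (SE 0.21, adjusted p = 0.0433) and 0.51 in jmjd-1.2 (SE 0.21, adjusted p = 0.0494). The value in quadruple mutants was 0.28 (95% interval -0.16 to 0.73, adjusted p = 0.301). Of these results only that in jmjd-5 was kept in all 22 fits that left out 1 sample. The one in jmjd-1.2 was kept in 10 of 22, that in double mutants in 14 of 22 and that in jmjd-3.1/2/3 in 18 of 22, with adjusted p values of up to 0.129, 0.183 and 0.0809.

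lin-14, whose protein sets the fates of the first larval stage, also stood above N2. Its 3 jmjd-5 samples had 29.0, 30.5 and 34.2 CPM, against 26.0, 19.9 and 18.5 CPM in N2. It had 32.0 to 39.9 CPM in jmjd-1.2, 28.6 to 37.7 CPM in jmjd-3.1/2/3, 18.0 to 29.0 CPM in quadruple and 22.1 to 37.1 CPM in double mutants. Every sample of jmjd-5, of jmjd-1.2 and of the triple mutant lay above N2, and both compound mutants overlapped N2. lin-14 rose by a log2 fold change of 0.68 in jmjd-1.2 (SE 0.17, adjusted p = 0.00383), 0.66 in jmjd-3.1/2/3 (SE 0.17, adjusted p = 0.00461) and 0.54 in jmjd-5 (SE 0.18, adjusted p = 0.0151). The jmjd-5 result was lost without jmjd-5 samples 3 and 4 or without N2 samples 2 and 4 (adjusted p of up to 0.0856). Values of 0.40 in double mutants (adjusted p = 0.0608) and 0.23 in quadruple mutants (adjusted p = 0.324) missed the threshold. The annotation places 5 short RNA genes within lin-14, 1 of which had up to 51 counts of its own.

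hbl-1, a hunchback-like zinc finger gene that acts in the early larval stages, was the member with the fewest counts, and its intervals were wide. It had 13.5, 5.88, 6.35 and 5.82 CPM in jmjd-3.1/2/3 samples, against 5.22, 3.93 and 4.28 CPM in N2 samples. Sample 1 of jmjd-3.1/2/3 was far above the other 3 samples of that strain, which were themselves close to the highest N2 sample. The log2 fold change was 0.83 (SE 0.32, adjusted p = 0.0397), and without that sample it was 0.45 (adjusted p = 0.215). This result was also lost without any of the 3 N2 samples or without jmjd-5 samples 3 and 4. In jmjd-5 hbl-1 had 4.83 to 7.58 CPM and a log2 fold change of 0.47 (95% interval -0.23 to 1.17, adjusted p = 0.225). In the remaining strains it was at 2.19 to 6.40 CPM, and its log2 fold changes were between -0.06 and 0.15 with adjusted p values of 0.723 to 0.925.

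lin-28 and lin-41 had values below N2 in all 5 mutants, unlike the rest of the set. LIN-28 is an RNA-binding protein that blocks the maturation of let-7, and LIN-41 is an RNA-binding protein that is itself a target of let-7 in the epidermis and is abundant in oocytes. lin-28 had 56.7, 56.4 and 54.6 CPM in jmjd-5 samples, against 67.7, 73.8 and 76.8 CPM in N2 samples. The jmjd-5 samples differed from each other by little and all were below N2. lin-28 had 60.4 to 68.0 CPM in jmjd-1.2, 61.1 to 68.5 CPM in jmjd-3.1/2/3, 56.7 to 65.0 CPM in quadruple and 53.1 to 69.4 CPM in double mutants. It fell by 0.38 on the log2 scale in jmjd-5 (SE 0.08, adjusted p = 0.000607), by 0.32 in double mutants (SE 0.08, adjusted p = 0.00176), by 0.22 in quadruple mutants (SE 0.08, adjusted p = 0.0379) and by 0.21 in jmjd-1.2 (SE 0.08, adjusted p = 0.0332). Its value in jmjd-3.1/2/3 was -0.18 (adjusted p = 0.0633). The falls in jmjd-5 and double mutants were kept whichever sample was left out, and those in jmjd-1.2 and quadruple mutants were kept in 11 and 9 of the 22 fits, with adjusted p values of up to 0.164 and 0.202. lin-28 overlaps the protein-coding gene F02E9.1, which had 42.7 CPM in jmjd-5 and 51.5 CPM in N2 (log2 fold change -0.26, adjusted p = 0.00705). Without strand, reads from the shared stretch cannot be told apart.

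lin-41 had 258, 267 and 253 CPM in jmjd-5 samples, against 321, 362 and 353 CPM in N2 samples. In jmjd-3.1/2/3 mutants lin-41 had 219, 200, 282 and 258 CPM, and in jmjd-1.2 mutants 245, 295, 261 and 270 CPM. No sample of these 3 strains reached the lowest N2 sample. Double mutants had 251, 325, 253 and 197 CPM, and quadruple mutants 298, 286, 323 and 253 CPM. One sample of each of the 2 compound mutants, library 2 of the double mutant and library 3 of the quadruple mutant, was just above the lowest N2 sample. lin-41 fell by 0.53 on the log2 scale in jmjd-3.1/2/3 (SE 0.13, adjusted p = 0.00276), by 0.43 in double mutants (SE 0.13, adjusted p = 0.00851), by 0.41 in jmjd-5 (SE 0.14, adjusted p = 0.0152) and by 0.37 in jmjd-1.2 (SE 0.13, adjusted p = 0.0274). The value in quadruple mutants was -0.25 (95% interval -0.52 to 0.02, adjusted p = 0.137). Without library 2 of both compound mutants it was -0.33 (adjusted p = 0.0241) in quadruple mutants and -0.67 (adjusted p = 5.19e-05) in double mutants. The jmjd-5 result was lost only without N2 sample 3 (adjusted p = 0.0517), and that in jmjd-1.2 without jmjd-1.2 sample 1, 3 or 4, N2 samples 2 and 4 or N2 sample 3 (adjusted p of up to 0.0982). No annotated gene overlaps lin-41.

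lin-46 and daf-12 act in the middle of the pathway. LIN-46 is a gephyrin-like protein that works against HBL-1 once LIN-28 has gone, and DAF-12 is the nuclear receptor for the worm's steroid hormones, the dafachronic acids, which link stage timing to the choice of the dauer larva. lin-46 had 8.89, 10.3 and 8.92 CPM in jmjd-5 samples, against 8.07, 7.05 and 5.71 CPM in N2. It had 8.57 to 10.5 CPM in jmjd-1.2, 8.63 to 11.7 CPM in jmjd-3.1/2/3, 6.93 to 11.5 CPM in quadruple and 7.06 to 10.6 CPM in double mutants. Mean levels of lin-46 in the 5 mutants, 9.20 to 10.6 CPM, were close to each other and above the 6.94 CPM of N2. It rose by a log2 fold change of 0.58 in jmjd-3.1/2/3 (SE 0.17, adjusted p = 0.00777), 0.56 in quadruple mutants (SE 0.17, adjusted p = 0.0135), 0.47 in jmjd-1.2 (SE 0.17, adjusted p = 0.0266) and 0.41 in double mutants (SE 0.17, adjusted p = 0.0460). The value of 0.39 in jmjd-5 missed the threshold (adjusted p = 0.0572). The lin-46 result in jmjd-3.1/2/3 was kept whichever sample was left out, that in double mutants in 12 of 22 fits, that in jmjd-1.2 in 18 and that in quadruple mutants in 20.

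daf-12 had 34.4, 34.4 and 36.5 CPM in jmjd-5 samples, against 28.0, 23.5 and 24.8 CPM in N2 samples. Its levels were 27.9 to 31.0 CPM in jmjd-1.2, 20.8 to 34.5 CPM in jmjd-3.1/2/3, 17.7 to 31.7 CPM in quadruple and 24.1 to 31.7 CPM in double mutants. daf-12 was the only member with a gap between neighbouring strains in the order of means, since the lowest jmjd-5 sample was above the highest jmjd-1.2 sample, the next strain down. It rose by a log2 fold change of 0.47 in jmjd-5 (SE 0.18, adjusted p = 0.0260), which was lost without jmjd-5 samples 3 and 4 or N2 samples 2 and 4 (adjusted p of up to 0.124). In the other 4 mutants its values were between 0.07 and 0.23, with adjusted p values of 0.268 to 0.776.

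Counted over the set, 5 members rose and 2 fell in jmjd-5 at an adjusted p under 0.05, where 35.8% of all genes tested rose and 26.2% fell. In jmjd-1.2 mutants 5 rose and 2 fell, against 28.2% and 20.1% of all genes. In jmjd-3.1/2/3 mutants 6 rose and 1 fell (27.1% and 19.6% of all genes). In quadruple mutants 2 rose and 1 fell (24.8% and 9.88%), and in double mutants 4 rose and 2 fell (33.0% and 22.1%). At the stricter rule lin-42 was the only member called. It was called in jmjd-5, where 16.1% of all genes were called higher, in jmjd-1.2 (8.15% of all genes), in jmjd-3.1/2/3 (9.87%) and in double mutants (16.6%). No member was called in quadruple mutants, where 7.08% of all genes were called higher, although 3 differed at an adjusted p under 0.05. The median log2 fold change of the 9 members was 0.47 in jmjd-5, 0.47 in jmjd-1.2, 0.60 in jmjd-3.1/2/3, 0.23 in quadruple and 0.40 in double mutants, where the medians over all genes tested lay between 0.01 and 0.09. Ranked among all genes tested by log2 fold change, lin-42 was at percentile 91.9 or above in each comparison with N2, while no other member was above 84.2. At the low end lin-41 was between percentiles 4.64 and 14.6.

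**Figure D2:**
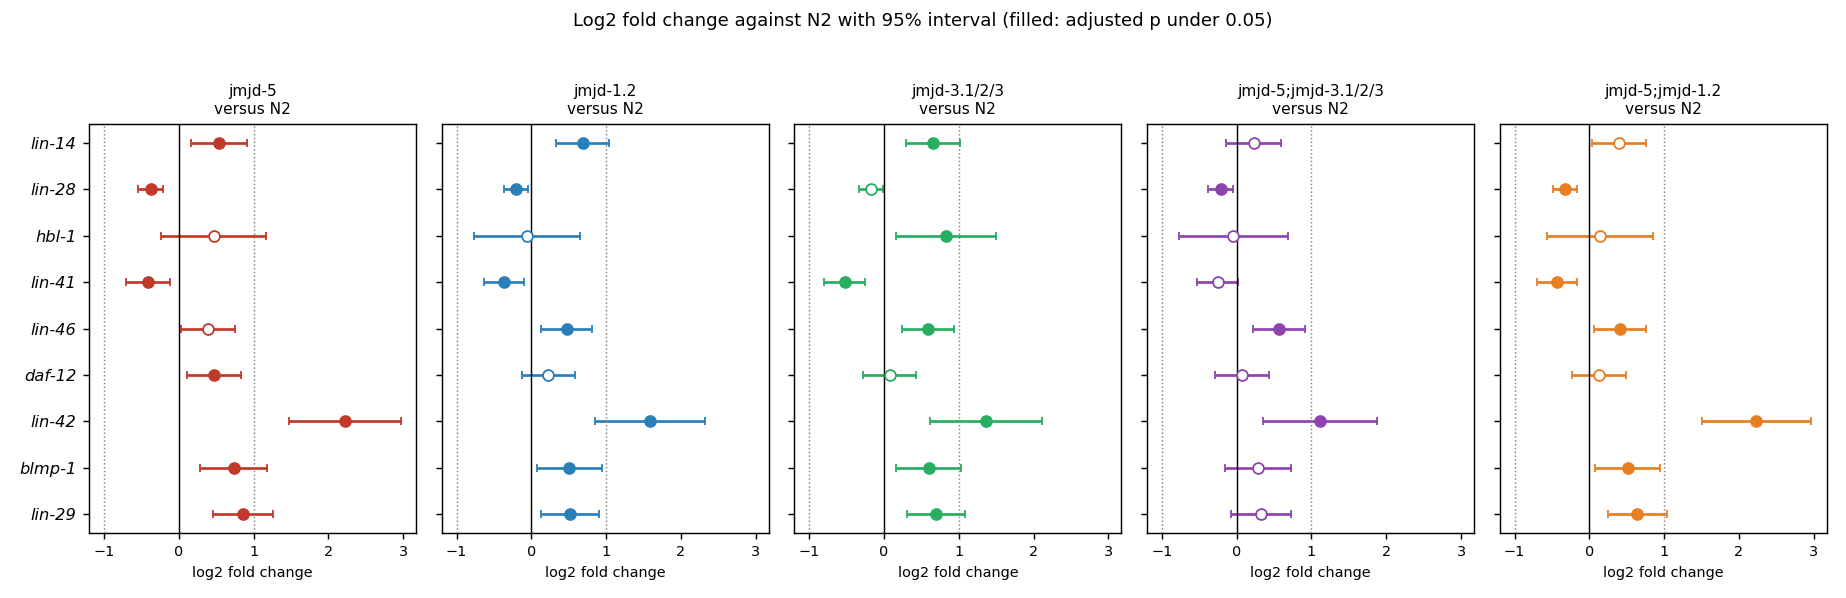
Log2 fold change against N2 (horizontal axes) of each heterochronic gene in the 5 mutants, with 95% intervals. Filled points have an adjusted p under 0.05 (edgeR), and dotted lines mark log2 fold changes of -1 and 1. lin-42 lies beyond 1 in all 5 mutants, while lin-28 and lin-41 lie below 0 in all 5.

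The compound mutants carry the jmjd-5 allele, so they were also set against jmjd-5 alone. In quadruple mutants lin-42 and lin-29 fell relative to jmjd-5, 2 of 9 members, where 18.4% of all genes tested differed in either direction and 1.37% were called. lin-42 had 29.2, 16.4, 46.1 and 17.7 CPM in quadruple mutants, against 54.9, 57.5 and 71.1 CPM in jmjd-5, with no overlap. It fell by 1.12 on the log2 scale (SE 0.29, adjusted p = 0.0153). The fall was lost without jmjd-5 samples 3 and 4 (adjusted p = 0.0838) or without quadruple mutant sample 4 (0.0569). lin-29 fell by 0.53 (SE 0.17, adjusted p = 0.0381), also with no overlap, and this was kept in 16 of 22 fits that left out 1 sample, with an adjusted p of up to 0.158. The other 7 members had log2 fold changes between -0.52 for hbl-1 and 0.17 for lin-46, with adjusted p values of 0.0819 to 0.431. Among them lin-14 (adjusted p = 0.185) and daf-12 (0.0819) also lay below jmjd-5 with no overlap. Lack of overlap thus does not set lin-42 and lin-29 apart. In double mutants no member differed from jmjd-5 by edgeR's test or by DESeq2, where 2.79% of all genes differed and 0.396% were called. daf-12 was the 1 member at an unadjusted p under 0.05, with a log2 fold change of -0.34 (95% interval -0.67 to -0.01, adjusted p = 0.324). The value for lin-42 was 0.01, with a 95% interval from -0.57 to 0.59. For lin-41 it was -0.02, with an interval from -0.29 to 0.25, and the interval of hbl-1, from -0.95 to 0.30, was the widest of the 9.

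An interaction term measured by how much each compound mutant differed from the sum of the log2 changes of its 2 parent genotypes. For jmjd-5 with jmjd-3.1/2/3 the term was below 0 for lin-42, at -2.47 (SE 0.47, adjusted p = 0.000219), since lin-42 rose by 2.23 in jmjd-5, by 1.36 in jmjd-3.1/2/3 and by 1.11, not their sum, in quadruple mutants. It was also below 0 for lin-29 (-1.23, SE 0.26, adjusted p = 0.000563), blmp-1 (-1.05, SE 0.29, adjusted p = 0.00484), lin-14 (-0.96, SE 0.24, adjusted p = 0.00243) and hbl-1 (-1.35, SE 0.45, adjusted p = 0.0163). For lin-41 (0.69, SE 0.19, adjusted p = 0.00441) and lin-28 (0.34, SE 0.11, adjusted p = 0.0139), whose values were below 0 in both parents, it was above 0. In all, 7 members differed and 3 of them (lin-42, lin-29 and blmp-1) were called, where 52.2% of all genes tested differed and 17.7% were called. The blmp-1 call was ended by leaving out jmjd-5 sample 1 or samples 3 and 4, jmjd-3.1/2/3 sample 4, quadruple mutant sample 2 or 4, N2 samples 2 and 4 or N2 sample 3, with log2 values of -1.04 to -0.90 and an adjusted p of up to 0.0164. The hbl-1 term was lost without N2 samples 2 and 4 (adjusted p = 0.0580), and that of lin-28 without N2 sample 3 or jmjd-3.1/2/3 sample 4 (adjusted p of up to 0.0631). For jmjd-5 with jmjd-1.2 the term was below 0 for lin-42 (-1.58, SE 0.45, adjusted p = 0.0135), lin-14 (-0.82, SE 0.24, adjusted p = 0.0139) and lin-29 (-0.73, SE 0.25, adjusted p = 0.0316). These 3 of 9 members stand against 33.6% of all genes that differed, and none was among the 5.79% called. Each was lost without N2 samples 2 and 4, with an adjusted p of 0.0633 for lin-42, 0.0574 for lin-14 and 0.0737 for lin-29. lin-29 was also lost without jmjd-5 samples 3 and 4, jmjd-1.2 sample 1 or 3, or N2 sample 3, the largest adjusted p being 0.0835. Both terms contain the same jmjd-5 and N2 samples.

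**Figure D3:**
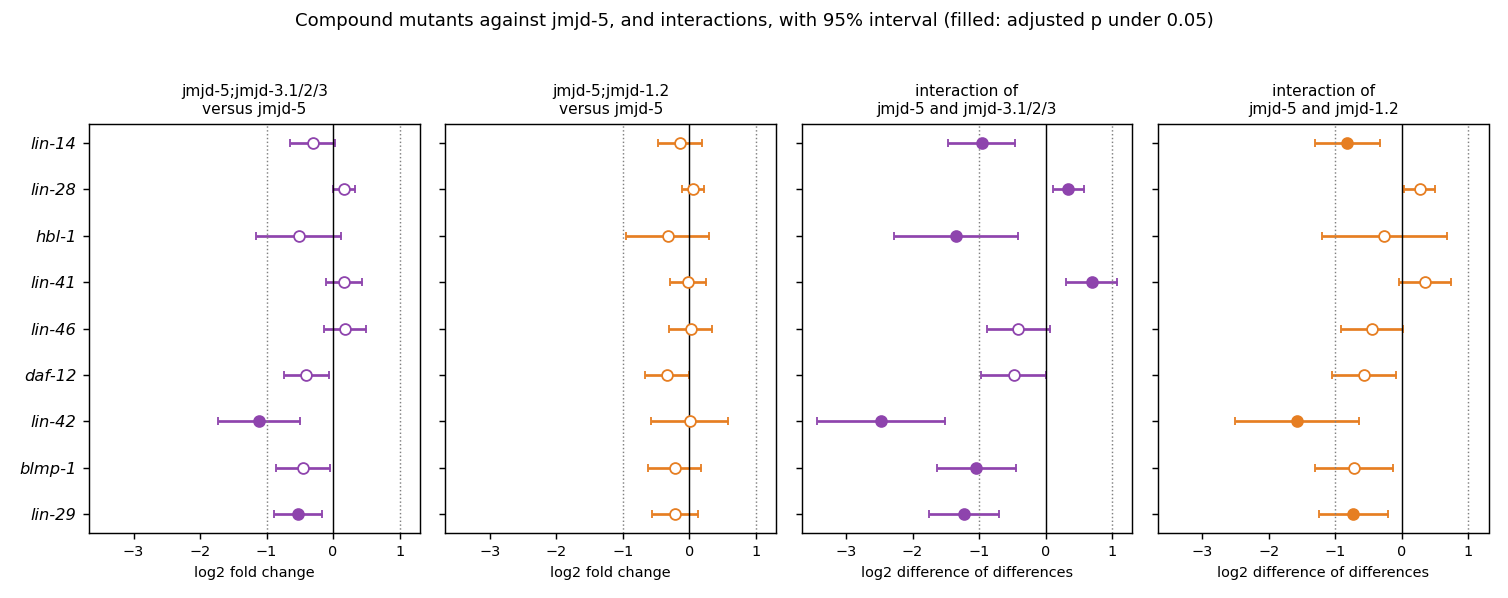
Log2 fold change of the 2 compound mutants against jmjd-5 (left panels) and the interaction terms (right panels, log2 difference of differences), with 95% intervals. Filled points have an adjusted p under 0.05 (edgeR). Double mutants sit near 0 against jmjd-5, and lin-42 has the lowest term in both interaction panels.

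Partners and regulators of the members, a list of 13 genes, mostly moved up in jmjd-5, where 8 rose and 2 fell, with a median log2 fold change of 0.47. Of all genes 35.8% rose there and 26.2% fell. In jmjd-1.2 against N2, 5 of 13 rose and 1 fell (28.2% and 20.1% of all genes). In jmjd-3.1/2/3 mutants 3 rose and 2 fell (27.1% and 19.6%). In quadruple mutants 2 rose and 1 fell (24.8% and 9.88%), and in double mutants 6 rose and 2 fell (33.0% and 22.1%). The counts that fell were below the share of all genes in every mutant. The counts that rose in jmjd-3.1/2/3 and quadruple mutants were below the 27.1% and 24.8% of all genes that rose there. nhr-85, a nuclear receptor that pulses with the moults and works with BLMP-1 on lin-4, was the 1 gene of the list called in jmjd-5 (log2 fold change 1.48, SE 0.28, adjusted p = 0.000143). dre-1, an F-box protein that lowers BLMP-1, rose by 0.68 (SE 0.12, adjusted p = 7.79e-05), and kin-20, the casein kinase that acts with LIN-42, by 0.47 (adjusted p = 0.00513). puf-9, a Pumilio-type RNA-binding protein that lowers hbl-1, rose by 0.61 (SE 0.11, adjusted p = 9.89e-05). daf-9, the enzyme that makes the DAF-12 ligand, rose by 0.77 (adjusted p = 0.00593). Of 4 genes that LIN-41 holds down in other settings, 3 passed the filter, and in jmjd-5 all 3 rose, lin-29 by 0.86, mab-3 by 0.99 (adjusted p = 0.00367) and mab-10, the cofactor of LIN-29, by 0.53 (adjusted p = 0.0119), where 35.8% of all genes rose. lin-29 is itself one of the 9 members. Of the same 3 genes 1 rose in jmjd-1.2, 1 in jmjd-3.1/2/3, 0 in quadruple and 3 in double mutants. Of all genes, 28.2%, 27.1%, 24.8% and 33.0% rose, in the same order, and counts out of 3 cannot be told from such shares.

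Genes of microRNA production and action had small log2 fold changes, mostly below 0. Of 10 genes 5 fell in jmjd-5 (26.2% of all genes fell there), 2 in jmjd-1.2 (20.1%), 7 in jmjd-3.1/2/3 (19.6%), 1 in quadruple (9.88%) and 5 in double mutants (22.1%), with medians of -0.26 to -0.09, and none was called in any comparison with N2. In jmjd-5 pash-1, the Drosha partner, fell by 0.31 on the log2 scale (adjusted p = 0.00127) and drsh-1, Drosha itself, by 0.33 (adjusted p = 0.00293). The library kit selects polyadenylated RNA, so mature microRNAs were not measured and the counts of their genes are of longer transcripts. lin-4 and mir-84 had 0 counts in all 24 libraries and mir-241 had 1 count in 1 library. let-7 had 0 to 17 counts per library, 141 in all over 20 libraries. Its fitted log2 fold change was 3.1 in jmjd-5 (SE 0.78), a value that rests on few counts. The microRNA genes summed to 1.44, 0.779 and 2.06 CPM in jmjd-5 samples and to 0, 0 and 0.856 CPM in N2 samples, which overlap. With so little in N2, let-7 passed the filter through mutant samples, so its value is no test of a rise.

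Genes of the moulting cycle stood above N2 in all 5 mutants, as lin-42 did. The list holds 12 genes of moulting and of the apical matrix that is built and shed with each cuticle. Like the other lists, it was chosen with earlier results of these data known. Of these, 11 were called higher in jmjd-5, 10 in jmjd-1.2, 11 in jmjd-3.1/2/3, 8 in quadruple and 11 in double mutants. The shares of all genes called higher were 16.1%, 8.15%, 9.87%, 7.08% and 16.6%, in the same order. Median log2 fold changes were 1.84 in jmjd-5, 1.53 in jmjd-1.2, 1.78 in jmjd-3.1/2/3, 1.21 in quadruple and 1.93 in double mutants, beside the medians of 0.01 to 0.09 over all genes. In jmjd-5 the metalloprotease gene nas-6 rose by 3.58 (SE 0.44, adjusted p = 1.50e-06), the moulting gene mlt-9 by 2.55 (SE 0.34, adjusted p = 3.78e-06), the hedgehog-related qua-1 by 2.44 (SE 0.28, adjusted p = 7.97e-07) and mlt-8 by 1.63 (SE 0.19, adjusted p = 8.01e-07). nas-37, chosen for mention after its values were seen, was the 1 of 12 that did not pass in jmjd-5, at 0.15 (adjusted p = 0.0572). The summed level of the 12 genes was 819, 733 and 880 CPM in jmjd-5 samples, against 288, 259 and 294 CPM in N2 samples. It was 669, 475, 591 and 692 CPM in jmjd-1.2, and 829, 543, 663 and 829 CPM in jmjd-3.1/2/3 mutants. Quadruple mutants had 574, 419, 718 and 425 CPM, and double mutants 1034, 558, 859 and 870 CPM. No mutant sample reached down to N2. Within each of the 4-sample strains, library 2 had the lowest sum, as it had the lowest lin-42 level.

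The genes whose levels followed lin-42 most closely over the 22 samples were dex-1 (Pearson r = 0.97), mlt-11 (0.97), ZC84.6 (0.96), Y55F3AM.14 (0.96) and C23H3.9 (0.96). dex-1 encodes a protein of the epidermal matrix and mlt-11, a protease inhibitor gene, is also on the moulting list. These samples share strains and scaling, so the values describe the libraries only. mlt-11 had 88.3 CPM in jmjd-5 and 9.03 CPM in N2 (log2 fold change 3.3), and dex-1 had 29.2 CPM in jmjd-5 and 9.84 CPM in N2 (1.61).

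**Figure D4:**
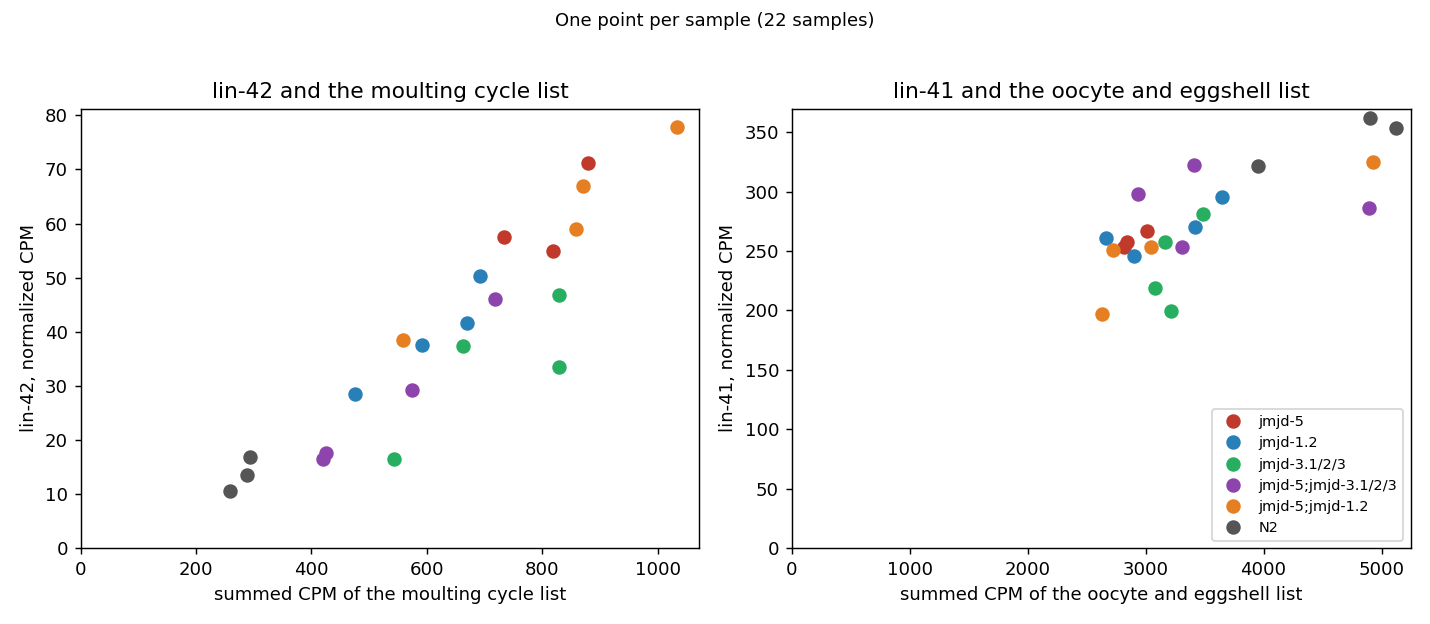
Left, lin-42 (normalized CPM) against the summed CPM of the moulting cycle list. Right, lin-41 against the summed CPM of the oocyte and eggshell list. Each point is 1 of 22 samples, coloured by strain. N2 samples lie at the lower left of the first panel, at 259 to 294 CPM on the horizontal axis, and toward the upper right of the second. Library 2 of the double mutant (list sum 4925 CPM, lin-41 at 325 CPM) lies there too. Library 2 of the quadruple mutant is as far right (4897 CPM), but its lin-41 level of 286 CPM is below every N2 sample.

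Of the factors that drive the moulting cycle, 6 passed the filter, and 3 were called higher in jmjd-5, 3 in jmjd-1.2, 1 in jmjd-3.1/2/3, 1 in quadruple and 3 in double mutants. The shares of all genes called higher were 16.1%, 8.15%, 9.87%, 7.08% and 16.6%, in the same order. Those called in jmjd-5 were nhr-85, bed-3 (log2 fold change 1.49, adjusted p = 0.000330) and grh-1, the Grainyhead factor (1.12, adjusted p = 0.000311). nhr-23, the nuclear receptor needed for every moult, had a value of -0.04 in jmjd-5 (adjusted p = 0.664) and nhr-25 a value of 0.01 (adjusted p = 0.985).

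Cuticle genes of both classes were mostly above N2. Beside the counts below, 7.08% (quadruple) to 16.6% (double mutants) of all genes were called higher. Of 15 collagen genes of the furrows and of the larval cuticle, 12 were called higher in jmjd-5, 11 in jmjd-1.2, 11 in jmjd-3.1/2/3, 10 in quadruple and 12 in double mutants, with medians of 1.54 to 2.02. In jmjd-5 rol-6 rose by 2.21 (SE 0.20, adjusted p = 5.82e-08), dpy-10 by 2.22 (SE 0.25, adjusted p = 6.40e-07), lon-3 by 1.88 (SE 0.21, adjusted p = 6.72e-07) and sqt-1 by 1.64 (SE 0.18, adjusted p = 3.81e-07). Of 6 genes of the adult cuticle, 3 were called higher in every mutant but the quadruple, where 2 were, and 5 of 6 had values above 0 in each of the 5. bli-1 (2.44 in jmjd-5, adjusted p = 6.12e-05), bli-2 (1.83, adjusted p = 4.45e-07) and col-63 (1.23, adjusted p = 8.66e-06) were those called in jmjd-5. col-19, the collagen gene by which the adult epidermis is usually recognised and a target of LIN-29, went the other way in all 5 mutants, with values of -0.63 in jmjd-5 (adjusted p = 0.0939), -0.73 in jmjd-1.2 (0.0507), -0.48 in jmjd-3.1/2/3 (0.191), -0.28 in quadruple (0.473) and -0.47 in double mutants (0.192), none of which passed the test. It was chosen for mention after its values were seen.

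Genes of oocytes and the eggshell, cells in which LIN-41 is abundant, were below N2. All 10 fell in jmjd-5 and in jmjd-1.2, 7 in jmjd-3.1/2/3, 2 in quadruple and 6 in double mutants at an adjusted p under 0.05, and none was called. Of all genes, 26.2%, 20.1%, 19.6%, 9.88% and 22.1% fell, in the same order. In jmjd-5 egg-2, needed at the egg surface for fertilization, fell by 0.78 on the log2 scale (SE 0.13, adjusted p = 3.29e-05), the chitin synthase gene chs-1 by 0.76 (SE 0.14, adjusted p = 0.000135), and oma-2 and oma-1, which prepare the oocyte for maturation, by 0.77 (adjusted p = 0.00143) and 0.58 (adjusted p = 0.00457). The summed level of the 10 genes was 2845, 3012 and 2819 CPM in jmjd-5 samples, against 3956, 4906 and 5121 CPM in N2 samples. Library 2 of the quadruple mutant (4897 CPM) and library 2 of the double mutant (4925 CPM) lay within the N2 range. All other mutant samples were between 2627 and 3650 CPM. Without these 2 libraries all 10 genes fell in each of the 5 mutants, with medians of -0.84 to -0.58. That fit was added after the data were seen, and it also changed the scale and spread for strains that hold neither library.

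The same 2 libraries stood out for yolk and germline genes. The 6 vitellogenin genes summed to 10569 CPM in library 2 of the quadruple mutant and 8637 CPM in library 2 of the double mutant, against 3442 to 5545 CPM in the other mutant samples and 5722 to 9372 CPM in N2. Of these genes 3 fell in jmjd-5, 4 in jmjd-1.2, none in jmjd-3.1/2/3 or quadruple mutants and 3 in double mutants. Of 8 germline genes 6 fell in jmjd-5, 8 in jmjd-1.2, 4 in jmjd-3.1/2/3, 2 in quadruple and 5 in double mutants. Of all genes, 26.2%, 20.1%, 19.6%, 9.88% and 22.1% fell, in the same order. Without the 2 libraries, in a fit added after the data were seen, all 6 yolk genes and all 8 germline genes fell in every mutant. Leaving them out also changed the scale and the estimate of spread that all strains share. The median shift over all genes was -0.10 in jmjd-5, -0.05 in jmjd-1.2 and -0.07 in jmjd-3.1/2/3 against N2, strains that hold neither library. Sperm genes moved the other way, with 8 of 8 higher in jmjd-5, 5 in jmjd-1.2, 7 in jmjd-3.1/2/3, 7 in quadruple and 8 in double mutants. Of all genes, 35.8%, 28.2%, 27.1%, 24.8% and 33.0% rose, in the same order. The part that the share of oocytes, sperm and moulting epidermis has in the levels of the 9 members was not tested.

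**Figure D5:**
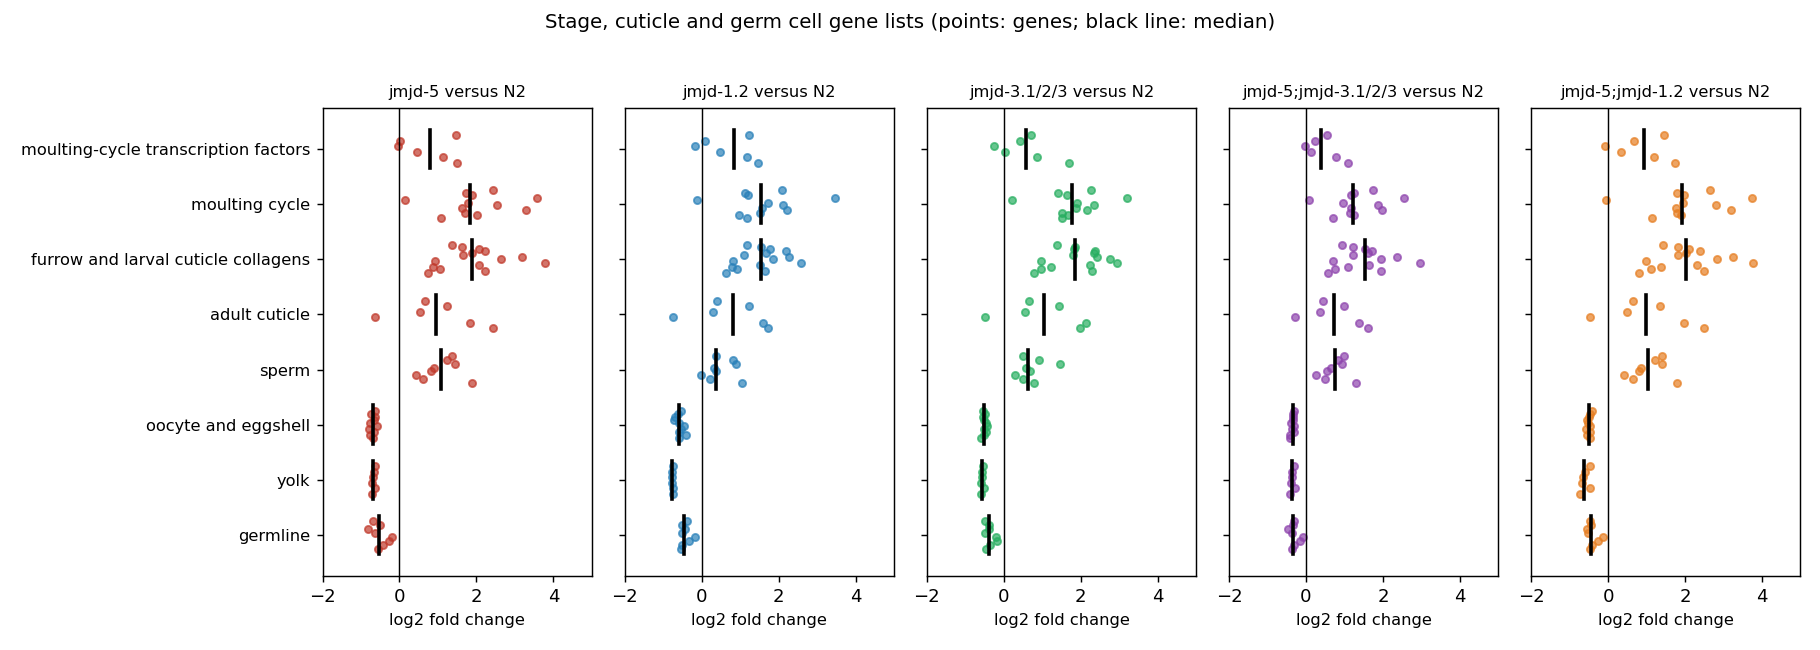
Log2 fold change against N2 (horizontal axes) of each gene in 8 lists, 1 panel per mutant. Points are genes, black lines medians. The moulting cycle and furrow collagen lists have medians of 1.21 to 2.02, and the oocyte, yolk and germline lists have medians below 0 in all 5 mutants.

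The same lists were compared between the compound mutants and jmjd-5. In quadruple mutants 5 of 12 moulting cycle genes and 2 of 15 furrow and larval collagen genes were lower than in jmjd-5, with medians of -0.69 and -0.42, and 1 of 10 oocyte genes was higher. Of all genes tested 18.4% differed in either direction, and the collagen and oocyte counts were not above that share. In double mutants, where 2.79% of all genes differed, no gene of these 3 lists did, and the medians were 0.08, 0.14 and 0.21.

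Markers of other tissues give the background for these changes in whole worms. Of 5 epidermal genes 4 rose and 1 fell in each mutant, where 24.8% (quadruple) to 35.8% (jmjd-5) of all genes rose. Of 12 neuronal genes 9 rose in jmjd-5, 6 in jmjd-1.2, where 1 fell, 3 in jmjd-3.1/2/3, 2 in quadruple and 6 in double mutants, and the counts in jmjd-3.1/2/3 and quadruple mutants were below the 27.1% and 24.8% of all genes that rose there. None of 4 intestinal genes was called in any comparison with N2, and of 5 muscle genes only unc-22, in jmjd-5, was called (log2 fold change 1.19, adjusted p = 0.00117). Of all genes tested, 7.08% (quadruple) to 16.6% (double mutants) were called higher, and 70 (quadruple) to 224 (jmjd-5) of 15641 were called lower. Counts from lists this small cannot be told from such shares. Of 7 genes of early embryos only 4 passed the filter, and they did not move one way. pes-10 was called lower in jmjd-5 (log2 fold change -2.22, adjusted p = 3.63e-06), in jmjd-3.1/2/3 (-2.04) and in double mutants (-1.04), while elt-7, an intestinal GATA factor, rose in all 5 mutants (0.80 in jmjd-5, adjusted p = 5.71e-05). The embryo list summed to 25.5 to 28.2 CPM in jmjd-5, against 20.7 to 24.8 CPM in N2. Of 3 male genes 2 passed the filter and neither was called against N2, which likewise cannot be told from the shares of all genes called.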

How the data were processed

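Whole-worm RNA of 24 young adult samples (TRIzol extraction, TruSeq RNA v2) was sequenced, and per the processing notes the authors aligned reads with STAR to ce10 and counted them with featureCounts. By the study's methods, reads that map to several places and PCR duplicates were removed, which can lower the counts of near-identical and of highly expressed genes, and counting used default settings, which ignore strand. The deposited tables hold whole-number counts per gene and library, not normalized. Versions are not given in the sources used here. Libraries of a strain with a chi-square per gene under 1.1 (genes of at least 10 counts in the pair) were summed. Counts were filtered by filterByExpr, scaled by TMM and tested in edgeR 4.0.16 (R 4.3.3) with 1 quasi-likelihood fit over 6 strains. P-values measure the spread between the 22 samples, taken as separate cultures. Intervals are 95%. Alternatives were DESeq2 1.42.0, other filters and scalings, separate libraries, a replicate block and leaving out samples. The fit was tested on simulated data.

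The members and lists were chosen with earlier results of these data known. The 4 genes of a list with the smallest p in jmjd-5 among those tested and the 5 genes most like lin-42 were to be named. Some of the former, such as pan-1, unc-10, bus-8 and che-14, are not named above. Others are named for their role, and nas-37 and col-19 after their values were seen. Tables of the study's own fold changes and p-values, and deposited histone mark peaks, were not used here, the peaks because no ce10 annotation was at hand. Other gene names and overlaps came from RefSeq (WBcel235). mir-48, myrf-1 and opt-2 were not matched.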

Additional observations from a re-analysis of the deposited data

Results flagged for a closer look

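Within strains of 4 samples, 36 sets of values were checked for a sample far from the others, of which chance picks about 1 in 20, and 2 had one. lin-28 in sample 3 of the quadruple mutant was at 56.7 CPM, with the gap to the next sample taking 0.917 of the strain's range. hbl-1 in sample 1 of jmjd-3.1/2/3 was at 13.5 CPM, with a gap share of 0.931.

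Interaction terms with an adjusted p under 0.05 in edgeR were flagged. Of all genes tested, 52.2% passed with jmjd-3.1/2/3 and 33.6% with jmjd-1.2. Both terms contain the same N2 samples, so a shift of the N2 samples cannot be told apart from a difference between backgrounds. With jmjd-3.1/2/3 the interaction terms, on the log2 scale, were -0.96 for lin-14, 0.34 for lin-28, -1.23 for lin-29, 0.69 for lin-41, -2.47 for lin-42, -1.35 for hbl-1 and -1.05 for blmp-1. With jmjd-1.2 they were -0.82 for lin-14, -0.73 for lin-29 and -1.58 for lin-42. All of these jmjd-1.2 terms were lost without N2 samples 2 and 4.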

How the results depend on the processing

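Of the member counts under alternatives other than leaving out 1 sample, 128 kept their value within 1.5 times, 19 grew and 6 shrank. Of the log2 fold changes 664 kept direction and side of the threshold, 31 passed it, 25 lost it and 9 changed sign. With the fold tested against a log2 value of 1, members called were 0 in jmjd-1.2 and jmjd-3.1/2/3 against N2 and 0 in the jmjd-3.1/2/3 interaction, against 1, 1 and 3. In quadruple mutants against N2, 1 was called with the replicate block or without library 2 of both compound mutants (added after seeing the data), and 1 differed with only the strains compared, against 0 and 3. Against jmjd-5, quadruple mutants had 1 called with DESeq2, every gene, 24 separate libraries or the replicate block, and 1 (library total as a term, upper-quartile scaling), 4 (24 libraries) or 6 (replicate block) differing, against 0 and 2. The jmjd-3.1/2/3 interaction had 5 called with 24 libraries or the replicate block. The jmjd-1.2 interaction had 1 called with DESeq2, every gene, only the strains compared, 24 libraries or the replicate block, and 5 (only the strains, upper quartile), 6 (24 libraries) or 7 (replicate block) differing, against 0 and 3. The cause of these shifts was not tested. Samples were treated as sharing only a number: of 60 same-numbered pairs 27 had a correlation over 0.1 (median 0.07), as did 40 of 180 others (median -0.01), and the rule for pairing asks it of every pair.

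Signs changed only where values were near 0: hbl-1 under upper-quartile scaling (0.053 in jmjd-1.2, 0.036 in quadruple mutants against N2); lin-42 in double mutants against jmjd-5 (-0.0017 with DESeq2, -0.011 with every gene, -0.035 with 24 libraries, -0.068 with the replicate block, -0.012 upper quartile); there also lin-46 (-0.0062 upper quartile) and lin-28 (-0.023 without both libraries 2). Upper-quartile scaling moved the median of all genes by up to 0.12 in comparisons with N2 and -0.15 in the jmjd-3.1/2/3 interaction; lin-28 stayed lower but lost significance in jmjd-1.2 (adjusted p = 0.263) and quadruple mutants (0.131), and lin-41 in jmjd-1.2 (0.0697).

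Leaving out 1 sample gave ranges of 0 to 1 called and 2 to 7 differing in jmjd-1.2, 0 to 1 called in jmjd-3.1/2/3, and 0 to 1 called and 0 to 3 differing in quadruple mutants against N2. Quadruple mutants against jmjd-5 had 0 to 1 called and 0 to 3 differing, the jmjd-3.1/2/3 interaction 2 to 5 called, and the jmjd-1.2 interaction 0 to 1 called and 0 to 6 differing. Log2 ranges that crossed 0 against N2 were hbl-1 in jmjd-1.2 (-0.19 to 0.065), quadruple (-0.31 to 0.21) and double mutants (-0.023 to 0.26), and daf-12 in jmjd-3.1/2/3 (-0.055 to 0.18) and quadruple mutants (-0.064 to 0.25). In double mutants against jmjd-5 they were lin-42 (-0.13 to 0.15), lin-46 (-0.048 to 0.077), lin-28 (-0.032 to 0.094) and lin-41 (-0.17 to 0.084). The planned counts of histone mark peaks at the members, and their alternatives, were not run. hbl-1 and let-7 are limited by depth, N2 being the shallowest strain apart from library 2 of both compound mutants.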
